A study of Homo sapiens with 4 samples.

Results

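Most of the genes described here encode the protein components of the small nuclear ribonucleoproteins (snRNPs) that make up the spliceosome, or close associates of these particles. All were taken by gene symbol, as every SNRP, SNRNP, SF3A, SF3B, PRPF, LSM or U2AF gene in the deposited table, with numbered pseudogenes left out. Of 61498 genes in the table, 130 carried such a symbol, 71 of these were numbered pseudogenes, and 59 remained. The pseudogene rule, read letter by letter, would also have dropped 7 SNRNP genes whose symbols end in P and digits, and these were kept. LSMEM1 and LSMEM2, which encode membrane proteins unrelated to splicing, matched by name alone and are accounted for but not interpreted. A further 6 LSM genes act outside the LSM ring of the spliceosomal U6 snRNP. They are counted with the snRNP genes below, and 1 of them, LSM14A, is among those called higher.

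The cells were K562, a human erythroleukaemia line. Untreated cells were represented by 2 libraries, and cells given 50 µM hemin for 108 h to induce erythroid differentiation by 2 more. Hemin is the oxidised, chloride-bound form of heme, the iron porphyrin of haemoglobin. Poly(A) RNA was read in 50-base reads, and the labels do not say whether the replicates were separate cultures, so the p-values below measure only the spread between these libraries.

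In each major spliceosomal snRNP a uridine-rich small nuclear RNA is bound by a ring of proteins and by proteins particular to that snRNP. U1 recognises the 5′ splice site, U2AF the polypyrimidine tract and the 3′ splice site, and U2 the branch site, after which the U4/U6.U5 tri-snRNP joins and the complex is rearranged into its catalytic form. In erythroid maturation, changes in splicing accompany the late stages, and these proteins are made in all nucleated cells.

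The libraries held between 7455447 and 8241534 expected counts (estimated reads per gene), of which 12.8% to 13.6% fell on mitochondrial genes. All 10 markers chosen for K562 and erythroid cells were above 3 counts in every library. Their summed level was 5564 and 5796 TPM (a share of all transcripts, scaled by transcript length) in the untreated libraries and 7137 and 6674 TPM after hemin. Markers of other lineages were lower. The megakaryocyte markers PF4, PPBP and GP9, the lymphocyte markers CD3E and MS4A1 and the epithelial markers KRT14 and CDH1 were at 0 in all 4 libraries, and the summed monocyte list stayed between 0.16 and 0.77 TPM. The megakaryocyte list, of which only ITGA2B was above 3 counts in every library, summed to 1.25 to 5.04 TPM. The lymphocyte list summed to 0.54 to 3.04 TPM. The fibroblast list, of which COL1A1, COL1A2 and LUM were above 3 counts in every library, summed to 4.85 to 7.93 TPM. The epithelial list, carried by EPCAM, summed to 42.4 to 49.2 TPM. The part of the erythroid shift in the results below was not tested. In bulk RNA, fewer cells making a transcript and less of it per cell cannot be told apart.

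Of the 59 genes, 56 had enough counts to be tested, and most were strongly expressed. On the TPM scale, which allows comparison between genes, the median level of the 59 was 79.7 TPM in untreated cells. SNRPD2, a protein of the Sm ring, had the highest level at 405 ± 7.28 TPM (SD, n = 2, as for the other means in this paragraph), followed by SF3B1, the U2 protein that clamps the branch-site helix, at 350 ± 24.5 TPM, and SNRNP70, the U1 protein that binds the first stem-loop of U1 RNA, at 320 ± 1.40 TPM. At the other end LSM11, a subunit of the U7 snRNP used for histone mRNA ends, stood at 6.88 ± 1.08 TPM and the U1-associated PRPF40B at 6.79 ± 0.276 TPM. The 3 genes that could not be tested were SNRPN, listed at 0 counts in every library, LSMEM1 with 6, 4, 0 and 2 counts, and LSMEM2 with 2, 1, 0 and 2 counts (untreated replicates 1 and 2, then hemin replicates 1 and 2, the order used throughout). SNRPN is the Sm protein best known from neurons and an imprinted gene, and a count of 0 allowed up to 3 counts per library, or 0.364 to 0.402 CPM (counts scaled to library size). The levels differed far more between genes than between conditions.

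**Figure D1:**
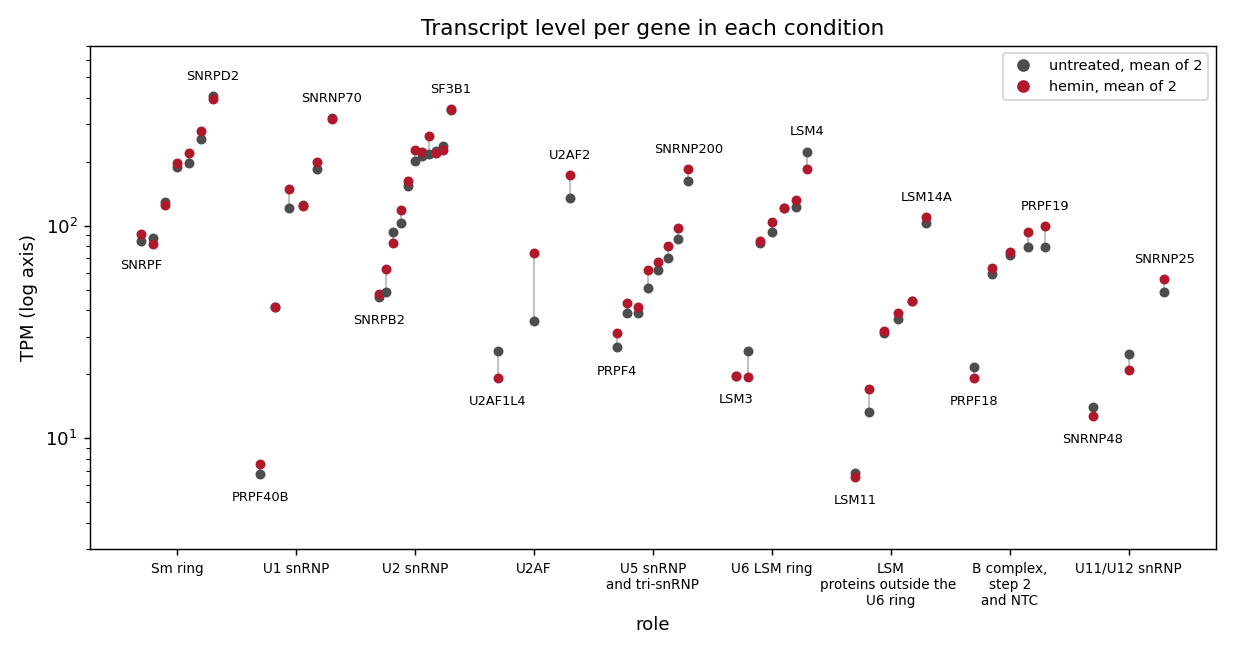
Level of each expressed snRNP gene in TPM (log axis) as the mean of the 2 untreated libraries (grey) and of the 2 hemin libraries (red), arranged by role, with the highest and lowest gene of each role named. SNRPD2 is highest at 405 TPM before hemin, the U11/U12 genes are among the lowest groups, and the gap between the grey and red points is widest for U2AF1. The U2AF1 points depend on how reads were divided with a near-identical copy, described below. Both loci together had 239 and 227 TPM before and 280 and 292 TPM after.

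The question put to these data was how hemin-induced differentiation altered the snRNP protein genes. The whole set drew 0.658% and 0.663% of the counts in the untreated libraries and 0.711% and 0.706% after hemin, and summed to 6022 and 6149 TPM before and 6525 and 6351 TPM after. Of the 56 tested genes, 16 rose and 1 fell by edgeR's quasi-likelihood test, with 0.05 as the limit for the adjusted p. That is 28.6% of the genes higher, beside 7.00% of all 14458 tested genes higher, and 1.79% lower beside 7.14% of all tested genes lower. These shares were not matched for level. The median untreated level was 79.7 TPM for the 59 genes and 15.3 TPM for all tested genes. The part of the level in the shares was not tested. The median log2 fold change of the 56 genes was 0.13, against -0.0048 over all tested genes. Apart from U2AF1, the 15 genes that rose did so by 1.14-fold to 1.33-fold, so the changes were small.

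In 32 of the 56 genes both hemin libraries lay above both untreated ones, which is 57.1% of them and 28.1% of all tested genes. The reverse order held in 4 genes, or 7.14%, beside 29.3% of all tested genes. This order takes no account of the size of the gap. SNRNP70, for example, is among the 32 with 451 and 450 CPM before and 452 and 454 CPM after hemin. These shares, too, were not matched for level. Without untreated replicate 1, only 9 of 56 genes were called higher (16.1%, beside 3.11% of all tested genes), and DESeq2 called 13 (23.2%, beside 4.71% of the genes to which it gave an adjusted p). Scaled by library size alone, in place of TMM, 38 rather than 46 of the 56 log2 fold changes were positive, and the median of all genes moved to -0.04 and that of the snRNP genes to 0.09.

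**Figure D2:**
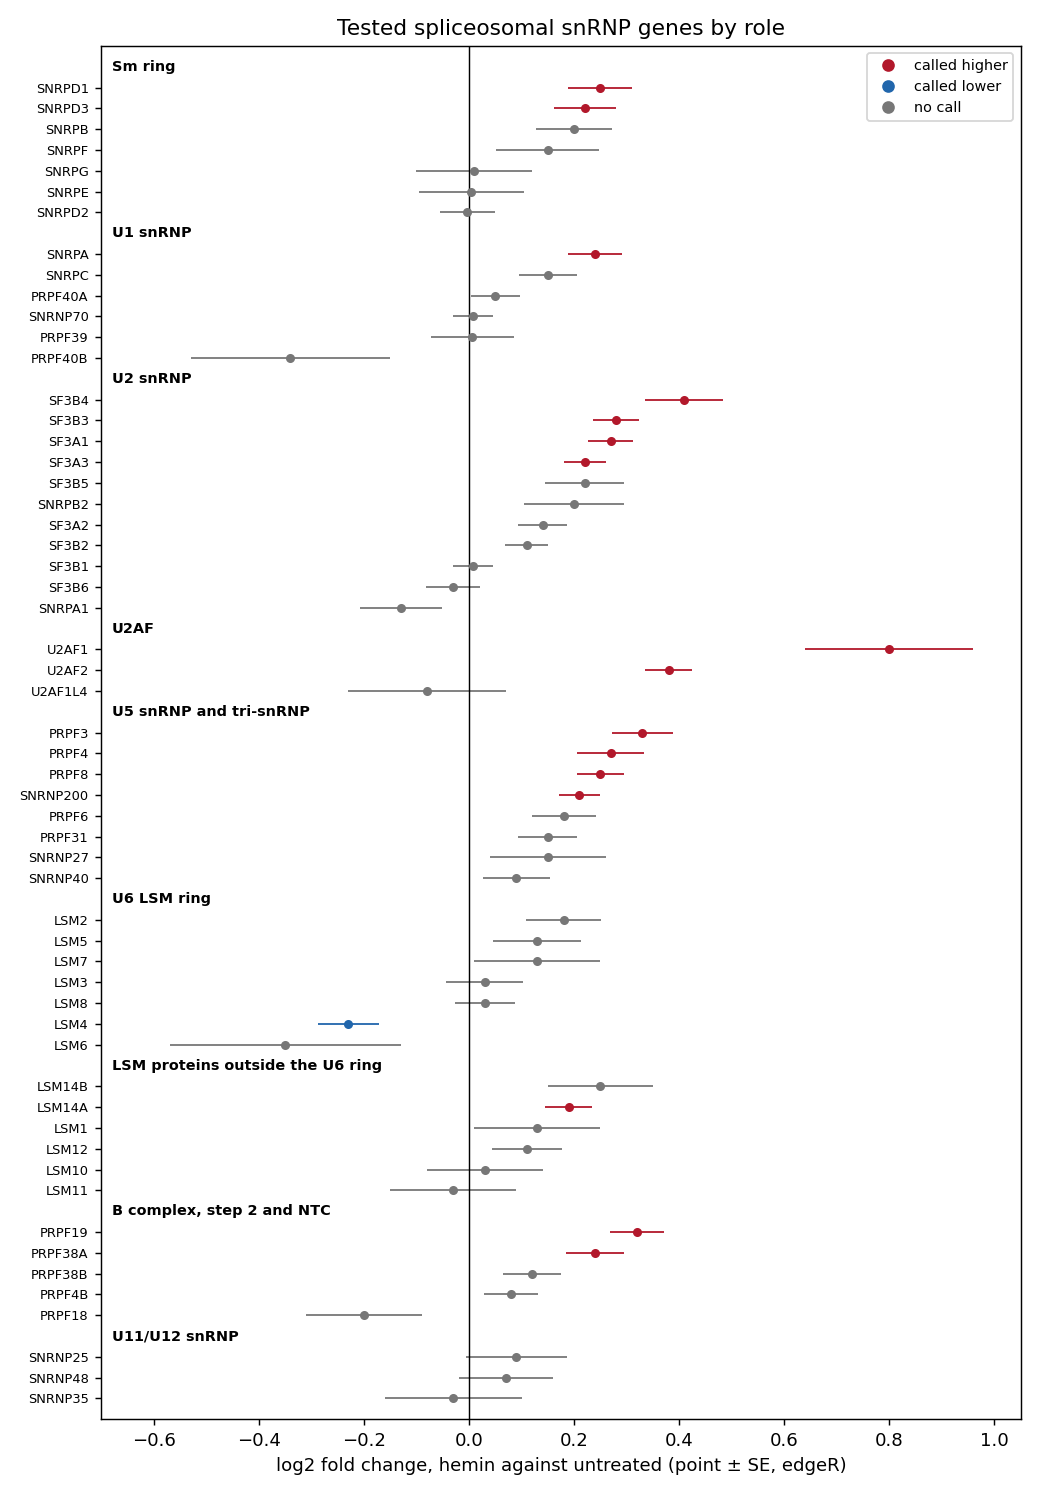
Log2 fold change of each of the 56 tested snRNP genes, hemin against untreated, as a point with its standard error from edgeR, grouped by role. Red marks the 16 genes called higher, blue the 1 called lower (LSM4) and grey the 39 without a call, and most points of the U2, U2AF and tri-snRNP groups lie to the right of 0.

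The Sm proteins form the ring that is closed around U1, U2, U4 and U5 RNA in the cytoplasm before the particle returns to the nucleus. SNRPD1 (SmD1) had 109 and 121 CPM (here scaled by TMM for sequencing depth and composition) in the untreated libraries and 141 and 133 CPM after hemin. It rose by 0.25 on the log2 scale (SE 0.061, edgeR adjusted p = 0.0247). SNRPD3 (SmD3) had 70.2 and 70.0 CPM before and 83.3 and 79.9 CPM after, a log2 fold change of 0.22 (SE 0.059, edgeR adjusted p = 0.0367). For both, the hemin libraries stood apart from the untreated ones. The call of SNRPD1 was lost without untreated replicate 1 (log2 fold change 0.18) and without hemin replicate 1 (0.22). That of SNRPD3 was lost whichever library was left out (log2 fold changes from 0.20 to 0.25). The SNRPD3 call was also lost by library size alone (edgeR adjusted p = 0.0737), with a replicate block (edgeR adjusted p = 0.0517) and in DESeq2 (adjusted p = 0.154). On log2(TPM + 1), the log2 fold change of SNRPD1 was 0.14.

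The other subunits did not pass the test. SNRPB, the shared SmB subunit, had 136 and 159 CPM before and 177 and 162 CPM after, and its log2 fold change of 0.20 (SE 0.073) had an edgeR adjusted p of 0.10. The value was 0.09 without untreated replicate 1 (edgeR adjusted p = 0.46) and 0.31 without untreated replicate 2 (edgeR adjusted p = 0.036), and it also passed the threshold without hemin replicate 2 (edgeR adjusted p = 0.0347), without a filter (0.00307) and on posterior mean counts (0.0385). Its untreated libraries were wider apart than its nearest untreated and hemin libraries. SNRPF had 24.1 and 25.5 CPM before and 29.0 and 26.2 CPM after. SNRPD2 had 134 and 139 CPM before and 140 and 133 CPM after, SNRPE 43.0 and 54.3 CPM before and 48.9 and 48.5 CPM after, and SNRPG 56.0 and 65.6 CPM before and 68.4 and 54.4 CPM after, so in these 3 genes the conditions overlapped and the sign of the log2 fold change depended on the scaling or the libraries used. Thus 2 of 7 tested Sm genes rose (beside 7.00% of all tested genes), 5 did not pass the test, and the median log2 fold change was 0.15.

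SNRPD3 showed a different picture on the length-scaled level. Its TPM was 86.1 and 89.0 before and 85.2 and 79.5 after hemin, while the average length of the transcripts to which its reads were assigned was 1197 and 1136 bases before and 1392 and 1415 bases after. The gene lies on the plus strand of chromosome 22 of GRCh38 from 24555958 to 24582052. A read-through gene, ENSG00000286070, covers it from 24556007 and runs on to 24628987, and 11.7% of the 50-base windows of the SNRPD3 transcripts also occur in that gene. The read-through gene itself had 21.6 and 20.6 CPM before and 34.8 and 38.4 CPM after (log2 fold change 0.80, SE 0.096, edgeR adjusted p = 0.00111). The posterior SD of its count, from the division of shared reads by RSEM, was up to 19% of the posterior mean. That of SNRPD3 was up to 5.99%, and the SE of neither gene includes this spread. Both genes added together gave a log2 fold change of 0.37 (SE 0.051, edgeR adjusted p = 0.002), a sum chosen after the values were seen. The higher SNRPD3 count and its lower TPM therefore came with longer assigned transcripts and more reads in the overlapping gene, and the part of either in the result was not tested.

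Among the U1 proteins, 1 of 6 rose (beside 7.00% of all tested genes) and 5 did not pass the test. The median log2 fold change was 0.03. SNRPA, which binds the second stem-loop of U1 RNA, had 92.2 and 92.8 CPM before and 108 and 111 CPM after hemin (log2 fold change 0.24, SE 0.052, edgeR adjusted p = 0.0157). The libraries of each condition lay close together, yet the call was lost when untreated replicate 1, untreated replicate 2 or hemin replicate 2 was left out. The log2 fold changes were then 0.24, 0.25 and 0.22. SNRNP70, one of the most highly expressed genes of the set, had 451, 450, 452 and 454 CPM, a log2 fold change of 0.0074 with an SE of 0.038. SNRPC, which stabilises the pairing of U1 with the 5′ splice site, had 89.9 and 91.2 CPM before and 97.5 and 103 CPM after and did not pass the test (edgeR adjusted p = 0.108). SNRNP70 and SNRPC are named here after their values were seen. PRPF40B had 8.60 and 8.41 CPM before and 6.20 and 7.19 CPM after, with a log2 fold change of -0.34 (SE 0.19, edgeR adjusted p = 0.276), and its sign was positive on the TPM scale, where its assigned transcripts were shorter after hemin.

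The U2 snRNP carries the SF3A and SF3B complexes, which hold U2 RNA to the branch site. Of its 11 genes, 4 rose (beside 7.00% of all tested genes) while 7 did not pass the test. The median log2 fold change was 0.20. SF3B4, a SF3B subunit that contacts pre-mRNA near the branch site, had 47.8 and 51.7 CPM before and 63.6 and 68.5 CPM after hemin. With all 4 libraries this was the largest increase among the snRNP genes other than U2AF1, at 0.41 (SE 0.074, edgeR adjusted p = 0.00718), while without untreated replicate 1 or without hemin replicate 2 that of U2AF2 was as large or larger. SF3B3, a large scaffold subunit, had 245 and 238 CPM before and 289 and 298 CPM after (log2 fold change 0.28, SE 0.043, edgeR adjusted p = 0.00383). In both genes the hemin libraries were clear of the untreated ones. Of the 50-base windows of the SF3B4 transcripts, 9.38% also occur in its pseudogene SF3B4P1, but the posterior SD of its count was at most 0.138% of the posterior mean.

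SF3A1 had 217 and 209 CPM before and 256 and 255 CPM after, and rose by 0.27 on the log2 scale (SE 0.043, edgeR adjusted p = 0.00463). SF3A3 had 257 and 260 CPM before and 301 and 300 CPM after, and rose by 0.22 (SE 0.04, edgeR adjusted p = 0.0082). In both SF3A genes the gap between conditions was several times that between replicates. SF3B3, SF3A1 and SF3A3 stayed past the threshold whichever library was left out, whereas SF3B4 had an edgeR adjusted p of 0.0518 without untreated replicate 1. On the TPM scale, SF3A3 had 217 and 209 before and 217 and 228 after, so its conditions touched there, and SF3A1 had a log2 fold change of 0.17 on log2(TPM + 1). Of the 7 U2 genes that did not pass the test, SF3B1 had 656 and 669 CPM before and 661 and 671 CPM after (log2 fold change 0.0084, SE 0.038), and SNRPA1, a protein bound to U2 RNA as a pair with SNRPB2, had the lowest log2 fold change at -0.13 (edgeR adjusted p = 0.306). The call was thus made in 2 SF3A and 2 SF3B subunits and not in SF3B1, the subunit with the highest level. In 8 of the 11 U2 genes, called or not, both hemin libraries lay above both untreated ones (beside 28.1% of all tested genes). The reverse order held in 1 (beside 29.3%). SF3B1 and SNRPA1 are named here after their values were seen.

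U2AF is the heterodimer that marks the 3′ end of the intron. U2AF2 (U2AF65; chromosome 19, 55654146 to 55674716, plus strand), which binds the polypyrimidine tract, had 143 and 148 CPM before and 189 and 190 CPM after hemin. It had the smallest p-value of the snRNP genes, with a log2 fold change of 0.38 (SE 0.045, edgeR adjusted p = 0.00102), and rose in TPM from 137 and 134 to 180 and 167. Its 2 hemin libraries were nearly equal and stood well clear of the untreated ones, and the call held whichever library was left out. U2AF1L4, a paralogue of the small subunit, had 15.9 and 12.7 CPM before and 12.9 and 14.1 CPM after, and the conditions overlapped (log2 fold change -0.08, SE 0.15, edgeR adjusted p = 0.779).

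U2AF1 (U2AF35), which reads the AG at the 3′ splice site, had the largest fold change of the set. Its counts were 325 and 202 before and 490 and 432 after hemin, or 41.1, 27.0, 66.1 and 53.5 CPM, which gave a log2 fold change of 0.80 (SE 0.16, edgeR adjusted p = 0.0127). The untreated replicates differed widely from each other, but both hemin libraries lay above them. Without untreated replicate 2 the log2 fold change was 0.54 (edgeR adjusted p = 0.052), without untreated replicate 1 it was 1.14, and on posterior mean counts it was 0.50 (edgeR adjusted p = 2.3e-04). DESeq2 gave an adjusted p of 0.0972. The gene is on the minus strand of chromosome 21 from 43092956 to 43107570. A copy, ENSG00000275895, is listed on the same strand from 6484623 to 6499248, and the annotation (GENCODE 44) types it as an artifact and tags it as an artifactual duplication of the assembly.

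In GENCODE 44, the canonical U2AF1 transcript and that of the copy are both 945 bases long and differ at 1 base, outside the coding part. Of the 896 windows of 50 bases in the U2AF1 transcript, 884 (98.7%) occur in that of the copy, so that few reads of that length from this transcript could tell the loci apart. The first 50 coding bases, with the start codon in capitals, are shown for both loci because they illustrate why a read there has no unique origin.
U2AF1: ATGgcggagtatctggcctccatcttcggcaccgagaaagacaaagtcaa
ENSG00000275895: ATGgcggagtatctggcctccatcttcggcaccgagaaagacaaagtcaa
The reads had been divided between the loci by RSEM, which lists a posterior SD for the count of each gene.

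The copy carried more counts than U2AF1 itself, with 1365 and 1380 before and 1283 and 1561 after hemin. U2AF1 thereby received 19.2% and 12.8% of the joint count before and 27.7% and 21.7% after. By posterior mean counts its share was 27.7% and 24.3% before and 34.2% and 30.4% after. The posterior SD was 108, 74.7, 119 and 137 counts for U2AF1 and 108, 74.6, 119 and 137 for the copy, and U2AF1 was the only tested gene of the set in which it exceeded 10% of the posterior mean. The posterior mean counts of U2AF1 to which these SDs belong were 469 and 385 before and 607 and 605 after hemin. The SEs and p-values of U2AF1 alone and of the copy alone take the divided counts as known and leave this spread out. The copy alone had a log2 fold change of 0.04 (SE 0.061, edgeR adjusted p = 0.712). When the reads of both loci were added, the counts were 1690 and 1582 before and 1773 and 1993 after, or 214, 211, 239 and 247 CPM. The hemin libraries then stood above the untreated ones with little spread, and the log2 fold change was 0.19 (SE 0.043, edgeR adjusted p = 0.0171). The direction and the call were kept, and the fold fell from 1.74 to 1.14, which is within the range of the other genes that rose.

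**Figure D3:**
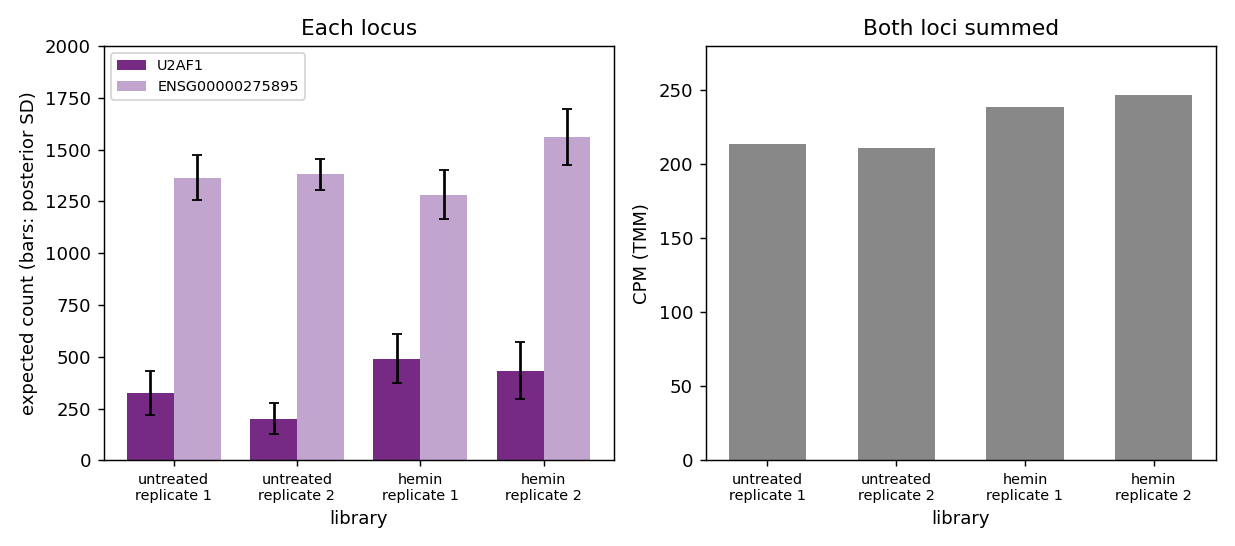
Left, expected counts of U2AF1 (dark) and of its annotated copy ENSG00000275895 (light) in each of the 4 libraries, with error bars for the posterior SD. That SD is a spread around the posterior mean count, not around the expected count drawn. The posterior mean of U2AF1 was higher than drawn, at 469 and 385 before and 607 and 605 after hemin. Right, CPM of both loci summed, where the untreated libraries lie at 214 and 211 and the hemin libraries at 239 and 247.

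The U5 snRNP and the tri-snRNP had a positive log2 fold change in all 8 genes (beside 49.1% of all tested genes), with a median of 0.19. Of the 8 genes, 4 rose (beside 7.00% of all tested genes). PRPF8, the scaffold at the catalytic centre, had 389 and 384 CPM before and 445 and 477 CPM after hemin (log2 fold change 0.25, SE 0.045, edgeR adjusted p = 0.00688). SNRNP200, the helicase that unwinds U4 from U6, had 514 and 526 CPM before and 606 and 594 CPM after (log2 fold change 0.21, SE 0.039, edgeR adjusted p = 0.00932). In TPM, PRPF8 was at 86.3 and SNRNP200 at 162 in untreated cells, and the hemin libraries of neither gene overlapped the untreated ones. PRPF3 and PRPF4, which sit together on the U4/U6 duplex, had 71.4 and 70.0 CPM and 55.3 and 54.1 CPM before. After hemin PRPF3 had 86.7 and 90.7 CPM (log2 fold change 0.33, SE 0.058, edgeR adjusted p = 0.00712). PRPF4 had 65.3 and 66.6 CPM after hemin (log2 fold change 0.27, SE 0.064, edgeR adjusted p = 0.0231). Both U4/U6 proteins were thus higher in each hemin library than in either untreated one. PRPF8 and PRPF3 stayed called higher whichever library was left out. The call of SNRNP200 was lost without untreated replicate 1 (log2 fold change 0.19). That of PRPF4 was lost when untreated replicate 1, untreated replicate 2 or hemin replicate 2 was left out (log2 fold changes 0.29, 0.26 and 0.25). DESeq2 gave PRPF4 an adjusted p of 0.104.

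The LSM proteins form a ring on the tail of U6 RNA. There 1 of 7 genes fell (beside 7.14% of all tested genes) and 0 rose (beside 7.00%) by edgeR. At an unadjusted p under 0.05, 1 was higher, and DESeq2 called 0 higher. LSM4 (chromosome 19, 18306236 to 18323112, minus strand) had 143 and 158 CPM before and 129 and 128 CPM after hemin. Its log2 fold change was -0.23 (SE 0.058, edgeR adjusted p = 0.0275), and its TPM was 215 and 231 before and 186 and 181 after. It was the only snRNP gene that fell, and it had the highest level of the ring. The call was lost without untreated replicate 2 (edgeR adjusted p = 0.144), without hemin replicate 2 (edgeR adjusted p = 0.0566) and in DESeq2 (adjusted p = 0.0591). LSM6 had the lowest log2 fold change of all 56 genes at -0.35, with 9.74 and 8.41 CPM before and 8.49 and 5.83 CPM after, but overlapped between conditions and did not pass the test (SE 0.22, edgeR adjusted p = 0.34). Its log2 fold change was -0.63 without hemin replicate 1 and -0.10 without hemin replicate 2, where PRPF40B was lower at -0.45, and without untreated replicate 1 PRPF40B was also lower (-0.33 against -0.24).

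Of the 6 LSM genes that act outside the U6 ring, LSM14A, a translational repressor of cytoplasmic P-bodies, rose from 157 and 161 CPM to 179 and 184 CPM (log2 fold change 0.19, SE 0.045, edgeR adjusted p = 0.0212). Its call was lost when untreated replicate 1, untreated replicate 2 or hemin replicate 2 was left out (log2 fold changes 0.18, 0.21 and 0.17). In TPM its conditions overlapped, with 109 and 97.4 before and 104 and 116 after, and the log2 fold change on log2(TPM + 1) was 0.09. Its log2 fold change was just under the smallest called one among the U2 and tri-snRNP genes, which was 0.21 for SNRNP200. Of the 5 genes that join the B complex, the second step or the PRP19 complex, 2 rose (beside 7.00% of all tested genes). PRPF19, the ubiquitin ligase at the core of the PRP19 complex, had 104 and 101 CPM before and 129 and 126 CPM after (log2 fold change 0.32, SE 0.051, edgeR adjusted p = 0.00435) and stayed past the threshold whichever library was left out. PRPF38A, which joins before activation, had 120 and 110 CPM before and 136 CPM in both hemin libraries (log2 fold change 0.24, SE 0.055, edgeR adjusted p = 0.0206), and without untreated replicate 2 its adjusted p was 0.103. The U11/U12 snRNP recognises the minor class of introns. Of its 3 genes, 0 passed edgeR's test (beside 7.00% of all tested genes higher and 7.14% lower). An unadjusted p under 0.05 was found in 0 of them and 0 were called by DESeq2, with log2 fold changes from -0.03 to 0.09.

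**Figure D4:**
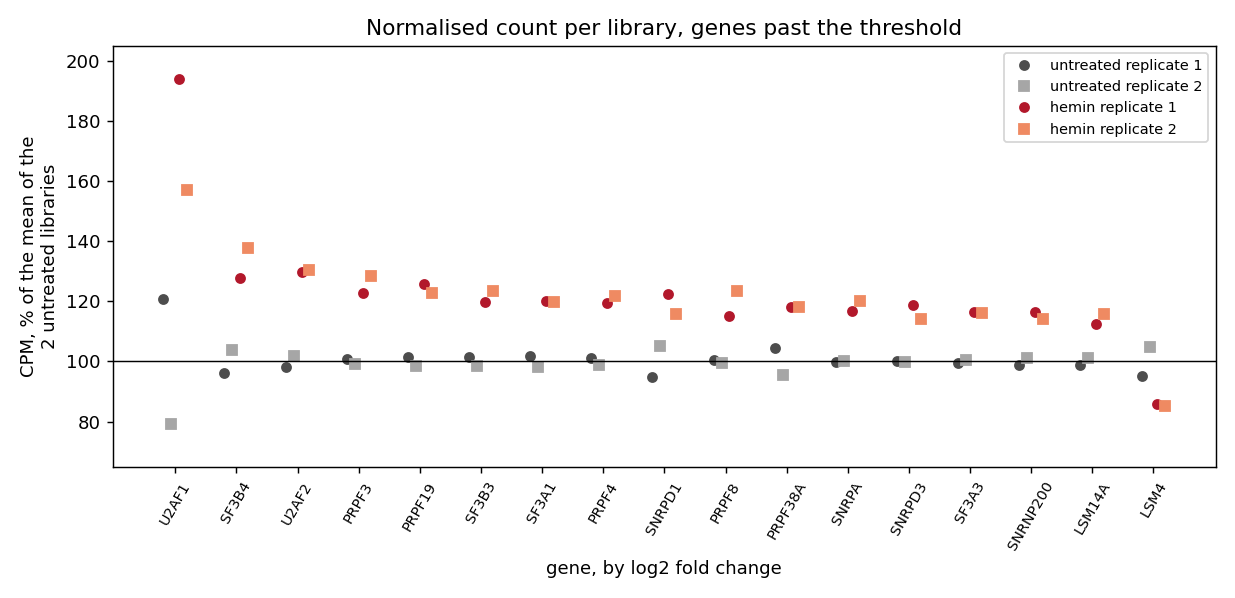
CPM of each library as a percentage of the mean of the 2 untreated libraries, for the 17 snRNP genes past the threshold, ordered by log2 fold change. Circles are replicates 1 and squares replicates 2, grey for untreated and red or orange for hemin. Both hemin points lie above both untreated points in the 16 genes called higher and below them in LSM4. The genes were picked by the test on these same libraries, so this order is no separate evidence.

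Promoter windows of 250 bases before and 50 bases after the start site (RefSeq, GRCh38.p14) were found for 49 of the 59 genes. The letters CCGGAAG, the core bound by ETS factors, occurred on either strand in 20 of the 49 windows (40.8%), against 10.7% of the windows of 27305 genes. GGGCGG (the GC box) occurred in 61.2% against 44.6%, CCAAT in 42.9% against 35.7%, and TATAAA in 2.04% against 12%. AGATAA, a motif bound by GATA factors, occurred in none of the 49, and in 10.5% of all windows. The median GC content was 60.3% in the windows of the snRNP genes and 58.3% in all windows. The windows of all genes were not matched to those of the snRNP genes for expression level, and the part of the level in these shares was not tested. Of the 12 genes that rose and had a window, 5 held CCGGAAG, as did 15 of the 33 that did not pass the test. The GC box was in 10 of the 12 and 18 of the 33, CCAAT in 4 and 15, and TATAAA in 0 and 1, and these differences were not tested.

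The matches upstream of the start site in these 5 genes are shown, with the motif in capitals, as examples of the motif whose share, among the 5 motifs searched, stood furthest above that of all windows, not as a trait of the genes that rose. Each stretch is 29 bases on the strand of the gene, and SF3A3 holds the motif on the opposite strand. The motif begins 30 bases before the start site in U2AF2 (chr19:55654994-55655022, plus strand), 26 in SF3B4 (chr1:149927812-149927840, minus strand), 37 in SNRNP200 (chr2:96305566-96305594, minus strand), 49 in SF3A1 (chr22:30356926-30356954, minus strand) and 68 in SF3A3 (chr1:37990073-37990101, minus strand). These starts are RefSeq's, and in GENCODE 44 the gene begins further upstream in U2AF2, SNRNP200 and SF3A3, so that there the stretch lies at least partly inside the gene.
U2AF2: gccggcggcggCCGGAAGtagccgaagcc
SF3B4: ccgtcttcgccCCGGAAGtggaagtcgtg
SNRNP200: tggggcgcgacCCGGAAGcggaagggaac
SF3A1: aggggacggtcCCGGAAGtgcgccagtcg
SF3A3: gtcccggggcaCTTCCGGcactcgcggaa
Such a match is a description of the window and not a bound site.

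A further list of 66 genes for other parts of the splicing machinery, with snRNP assembly and import factors, was fully tested. In it 13 genes rose (19.7%, beside 7.00% of all tested genes) and 4 fell (6.06%, beside 7.14%, so the share that fell was near the background), with a median log2 fold change of 0.14. The smallest p-values among those that rose belonged to DDX46, a helicase of the U2 snRNP, from 240 and 240 CPM to 280 and 291 CPM (log2 fold change 0.25, SE 0.043, edgeR adjusted p = 0.00599), to SART1, a tri-snRNP protein, from 98.7 and 95.3 CPM to 119 and 118 CPM (log2 fold change 0.28, SE 0.051, edgeR adjusted p = 0.00739), and to NCBP1, the large cap-binding subunit, from 116 and 110 CPM to 134 and 140 CPM (log2 fold change 0.28, SE 0.054, edgeR adjusted p = 0.0104). These 3 changes were of the size seen in the snRNP genes.

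RBM22, which binds the catalytic RNA core, fell from 128 and 120 CPM to 104 and 105 CPM (log2 fold change -0.25, SE 0.054, edgeR adjusted p = 0.0165). NCBP2, the small cap-binding subunit, fell from 70.3 and 73.2 CPM to 56.9 and 60.6 CPM (log2 fold change -0.29, SE 0.066, edgeR adjusted p = 0.0206). ZCRB1, a protein of the U11/U12 snRNP, fell from 41.1 and 35.0 CPM to 28.7 and 29.4 CPM (log2 fold change -0.39, SE 0.099, edgeR adjusted p = 0.0297). The 2 cap-binding subunits therefore moved in opposite directions. DDX46 and SART1 stayed past the threshold whichever library was left out. The calls of RBM22 and ZCRB1 were lost without untreated replicate 1, and that of NCBP1 without untreated replicate 2. That of NCBP2 was lost when untreated replicate 1, untreated replicate 2 or hemin replicate 1 was left out. With 1 library left out, log2 fold changes ran from -0.29 to -0.20 for RBM22 and from -0.50 to -0.27 for ZCRB1. They ran from 0.24 to 0.32 for NCBP1 and from -0.33 to -0.24 for NCBP2. With untreated replicate 1 left out, 4 of the 66 genes were called higher (beside 3.11% of all tested genes) and 0 lower (beside 3.40%) by edgeR. With untreated replicate 2 left out, 4 were higher (beside 3.53%) and 2 lower (beside 3.50%). DESeq2 called 5 of the 66 higher (beside 4.71%) and 0 lower (beside 3.81%). Separately, in the edgeR fit of all 4 libraries, 5 of the 66 were lower at an unadjusted p under 0.05. Of all 14458 tested genes, 2118 were lower at that limit.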

How the data were processed

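The authors trimmed the reads with Trimmomatic 0.39 and quantified them with RSEM 1.3.1 and STAR 2.7.5c on Ensembl 106 (GRCh38). The deposited expected counts and posterior mean counts are estimated counts per gene, not normalized, in which reads shared between genes are divided. The deposited TPM are scaled by effective length. The deposited posterior SD of the count, average transcript length and TPM bounds complete the files, and the authors' FPKM were not used.

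Expected counts were rounded, filtered with filterByExpr and scaled by TMM, and edgeR 4.0.16 was used for the test (quasi-likelihood, condition as the only term, R 4.3.3). P-values were adjusted by Benjamini-Hochberg over all 14458 tested genes, with a threshold of 0.05. The spread between replicates was above that of counting alone (mean chi-square per gene 1.83 and 2.24). Floors cover counting error only. The fit was checked on simulated counts with known changes.

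Full values were given for genes past the threshold, the Sm and U2AF genes, the 2 highest and lowest fold changes, genes with a posterior SD above 10%, and the 3 smallest p-values per direction of the other splicing genes. The members, lists and rules were chosen with earlier results of these data known. Coordinates and transcripts came from GENCODE 44 (all 59 genes matched, 100%). LSM1's sequence and position were left out.

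Alternatives were RLE factors, library size, mitochondrial genes left out, no filter, at least 20 counts, a replicate block, posterior mean counts, each library left out, DESeq2 1.42.0, limma 3.58.1 on log2(TPM + 1) and log2(TPM + 0.1), and summed copies. Summing SNRPD3 with its read-through gene was added after the values were seen.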

Additional observations from a re-analysis of the deposited data

How the results depend on the processing

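The 16 snRNP genes called higher became 9 to 14 when 1 library was left out, and the 1 called lower became 0 or 1. DESeq2 called 13 higher and 0 lower (1 lower at an unadjusted p under 0.05). The limma fits on log2(TPM + 1) and log2(TPM + 0.1) called 0 higher and 0 lower (4 higher in each, and 2 and 1 lower, at an unadjusted p under 0.05), as they called 0 and 2 genes of the whole table. The other alternatives gave 15 to 18 higher and 1 lower. PRPF19, PRPF3, PRPF8, SF3A1, SF3A3, SF3B3 and U2AF2 passed the threshold in every alternative but limma. The median log2 fold change of 0.13 was 0.12 to 0.16 with 1 library left out, 0.09 by library size alone and 0.08 in both limma fits.

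Of the other splicing genes, 13 called higher became 7 by library size alone, 21 with no filter or with posterior mean counts, 5 with DESeq2 and 0 with limma, and 4 to 12 with 1 library left out. The 4 called lower became 0 with DESeq2 and limma, and 0 to 3 with 1 library left out. With the replicate number as a block, 8 of them and 15 snRNP genes were called higher, although the numbers did not pair the libraries (correlation of deviations -0.0221).

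Signs turned for PRPF40B (0.11 and 0.13) and SNRPD3 (-0.09 and -0.09) on log2(TPM + 1) and log2(TPM + 0.1). SNRPD2 turned to 0.0017 with RLE factors, 0.0093 with no filter and 0.0071 with DESeq2, SNRPE to -0.03 by library size and in both limma fits, and SNRPG to -0.03 by library size. With 1 library left out, SNRPD2 ranged from -0.04 to 0.04, SNRPE from -0.16 to 0.18, SNRPG from -0.15 to 0.17, and U2AF1L4 from -0.23 to 0.09. Of these, only SNRPD3 had been called. The cause was not tested.

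With 2 libraries per condition, a library left alone was assumed to vary like the others.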

Other observations

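Of the 71 numbered pseudogenes left out, 52 had no count in any library. The other 19 together had 175 and 155 counts before and 176 and 173 after hemin, between 0.296% and 0.339% of the counts of the snRNP genes and pseudogenes together. SNRPG had the most numbered pseudogenes with 20, followed by SNRPC with 18 and SNRPE with 10. LSM12P1 held most of the counts, with 112, 124, 119 and 125 counts, and did not pass the test (log2 fold change 0.04, SE 0.13, edgeR adjusted p = 0.884).

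The average length of the transcripts to which reads were assigned was longer in both hemin libraries than in both untreated ones in 13 of the 56 tested genes (23.2%, beside 14.6% of all tested genes) and shorter in 6 (10.7%, beside 14.9%). For PRPF40B it was 1773 and 1825 bases before and 1400 and 1158 bases after. For U2AF1L4 it was 891 and 763 bases before and 996 and 1027 bases after. For U2AF1 it was 1126 and 2159 bases before and 1099 and 1216 bases after, so that untreated replicate 2 stood apart. These lengths depend on how RSEM divided reads between transcripts, and they were not tested.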
